A study of Danio rerio with 6 samples.

Results

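The genes described here encode growth factors of the FGF, PDGF, VEGF, IGF, HGF and EGF families, their receptors and the proteins that bind them, measured in sorted cells of the ventricular apex of zebrafish. They are the rows of the deposited expression table whose gene symbol begins with fgf, pdgf, vegf, igf, hgf, hbegf or egfra, or is met. Of 25089 rows, 88 matched in lower case and 2 more, PDGFRB and PDGFD, in capitals, which gives 90 rows of 88 symbols, after 4 rows of igf2bp RNA-binding proteins were left out. By role they are 44 ligand rows, 16 receptor rows, 15 binding protein rows, 7 rows of intracellular FGF homologous factors and 8 other rows. These 8 carry a family name but were placed in no role above, among them pdgfrl, for a receptor-like protein without a kinase. The rows fgfrl1a and fgfrl1b, which also lack the kinase domain, were counted as receptors. The rule uses the symbol only.

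RNA-seq was run on 6 libraries from fish of the strain Gata4:GFP, a reporter that marks cells with gata4 activity by green fluorescent protein. In injured zebrafish hearts such a reporter is known to be active in outer-layer cardiomyocytes near the wound. The 3 regenerating libraries came from hearts taken 5 days after the tip of the ventricle was cut off, and the 3 uninjured libraries from hearts that were not cut. The titles call both groups cardiomyocytes, and a label headed batch holds only the condition, so that no batch apart from it is known. In both groups apexes were taken and dissociated, and cells were sorted by fluorescence straight into lysis buffer. The protocol states that injury tissue was cleared from the apexes first. Age, sex and any sham operation are not given in the labels. Nor is it stated that the libraries are from different fish, so the spread behind each p-value may be technical.

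Growth factors of these families are secreted or membrane-bound proteins that bind receptor tyrosine kinases, which pass the signal through the RAS-ERK and PI3K-AKT cascades. VEGF ligands act mainly on endothelial cells, PDGF ligands on fibroblasts, pericytes and epicardium-derived cells, and HB-EGF on receptors of the EGF family. IGF ligands circulate in complexes with IGF-binding proteins, which control their access to the IGF1 receptor. FGF, PDGF, IGF and VEGF signalling have each been linked to heart regeneration in zebrafish, among other roles in the growth of the epicardium and of coronary vessels.

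Values are in scaled FPKM, that is, fragments relative to transcript length and library size, divided by a library factor computed from median ratios. The factor was applied because the median gene was higher by 0.50 (log2) in regenerating libraries before scaling, against 0.05 after it. Whether that shift is technical was not tested, and changes are given relative to that scaling. Genes above 1 FPKM numbered 13466 to 13723 in regenerating and 11294 to 12207 in uninjured libraries. Summed FPKM ran from 508557 to 535337 in regenerating libraries and from 422675 to 460407 in uninjured ones, and read counts per library are not known. Cardiomyocyte markers were abundant in all libraries: the 8 markers summed to 3629 to 7838 scaled FPKM in regenerating libraries and to 5716 to 12350 in uninjured ones. Markers of other cells were present as well. Summed scaled FPKM was 150 to 221 in regenerating and 14.2 to 29.8 in uninjured libraries for 6 epicardial markers, and 1197 to 1328 against 176 to 322 for 6 fibroblast markers. It was 106 to 184 against 86.6 to 110 for 7 endothelial and endocardial markers, 312 to 362 against 461 to 567 for 6 mural cell markers, and 84.4 to 154 against 220.5 to 402 for 5 thrombocyte markers. For 4 erythrocyte markers it was 315 to 932 against 5.34 to 380, for 6 macrophage markers 30.4 to 111 against 76.1 to 106, and for 3 neutrophil markers 2.21 to 5.79 against 1.68 to 2.93. The epicardial marker upk3b, the macrophage marker csf1rb and the neutrophil marker mpx stayed under 1 scaled FPKM in all 6 libraries.

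Of the 90 rows, 44 passed the filter of more than 1 FPKM in at least 3 libraries and were tested, and 46 were not tested. Among the tested rows vegfaa, pdgfab and PDGFRB rose in regenerating cells, igfbp3 fell, and 40 did not pass (limma, adjusted p below 0.05 over all 13319 tested genes). Those 3 higher rows are 6.82% of the tested members, beside 7.50% of all tested genes, and the single lower row is 2.27%, beside 3.94%. The shares of changed members were thus near or under those of all genes, and the median log2 change was -0.18 for the 44 members and 0.05 for all tested genes. With p-values left unadjusted, 7 members were higher and 6 lower at 0.05 in limma. The share of all tested genes at that cut-off was not computed, so these counts cannot be set against it. Before scaling, 9 members were higher, or 20.5% beside 23.7% of all tested genes, and 0 were lower beside 1.52%. The 6 added without scaling were hbegfa, egfra, fgf24, igf1, igfbp6b and igflr1. Of the 44 changes, 15 had another sign without scaling. How many of all tested genes did so was not computed, so the 15 cannot be set against them.

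**Figure D1:**
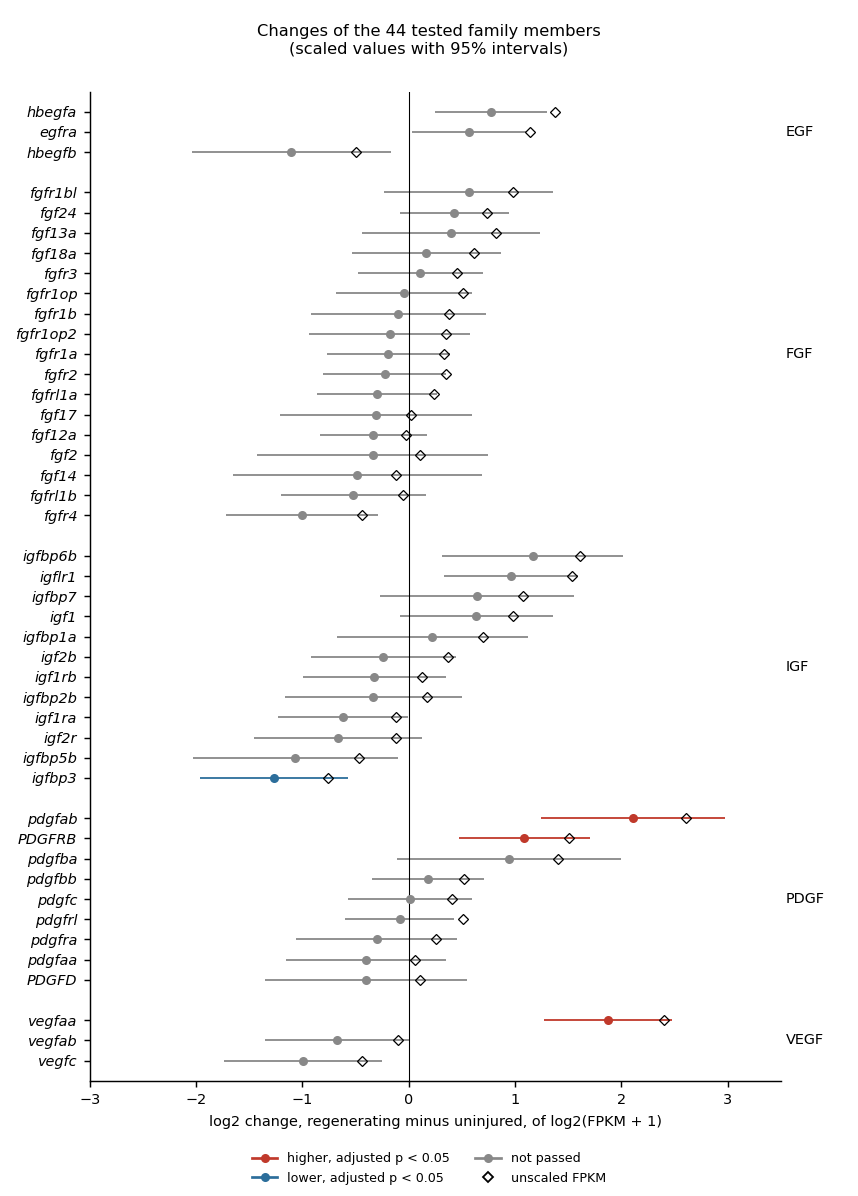
Change of each of the 44 tested members, regenerating minus uninjured, in log2(FPKM + 1), grouped by family; filled circles with 95% intervals are scaled values and open diamonds the same change in unscaled FPKM. The members vegfaa, pdgfab and PDGFRB lie to the right in red, igfbp3 lies to the left in blue, and the diamonds lie to the right of the circles throughout.

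In 8 of 44 tested members all regenerating libraries were above all uninjured ones, which is 18.2% beside 19.1% of all tested genes. In another 8 all regenerating libraries were below, beside 13.7% of all tested genes. One of these, the intracellular factor fgf12a, has a mean normalised count of 0 in the authors' deposited table, so no read counts stand behind its level. That level lay above the median floor of genes with such a count, which for its length is 0.129 to 0.186 FPKM. Without scaling the groups overlapped in all of these 8 members. The unscaled values of fgf12a were 0.96, 1.24 and 1 FPKM in regenerating and 0.92, 1.34 and 1.05 FPKM in uninjured libraries. Those of igfbp3 were 3.38, 3.73 and 5.79 FPKM in regenerating and 4.83, 12.19 and 7.87 FPKM in uninjured libraries. Of the 44 tested rows 32 exceeded 1 FPKM in all 6 libraries. Only fgf24 passed the filter through the regenerating libraries alone, so its place among the 8 higher members without overlap was favoured by the filter. The same holds for its call as higher without scaling.

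Of the 5 VEGF ligand rows vegfaa rose, vegfab and vegfc did not pass, and the 2 others were not tested. The gene vegfaa (ENSDARG00000103542) encodes one of the zebrafish copies of VEGF-A, the main growth factor of blood vessel endothelium. It measured 17.7, 11.9 and 17.6 scaled FPKM in regenerating libraries, against 4.17, 2.98 and 3.42 in uninjured ones. All regenerating libraries were above all uninjured ones, with regenerating replicate 2 the lowest of its group. The mean was 15.7 ± 3.35 scaled FPKM in regenerating and 3.52 ± 0.601 in uninjured cells (SD, n = 3 each), a ratio of 4.46, and the log2 change was 1.87 (SE 0.27, limma adjusted p = 0.00326). This call held in all 16 alternative settings tried, with log2 changes of 1.78 to 2.40 and adjusted p-values of 0.000741 to 0.0274.

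The other VEGF-A copy, vegfab (ENSDARG00000034700), did not pass. It measured 9.75, 10.1 and 10.8 scaled FPKM in regenerating libraries, against 26.2, 14.9 and 12.1 in uninjured ones, so that the groups did not overlap and the uninjured libraries were widely spread. Its log2 change was -0.67 (SE 0.30, limma adjusted p = 0.188), and -0.10 without scaling. The gene vegfc, whose product acts on lymphatic and venous endothelium, measured 6.27, 9.75 and 6.25 scaled FPKM in regenerating libraries and 22.6, 16.5 and 9.79 in uninjured ones (log2 change -0.99, SE 0.33, limma adjusted p = 0.0871). Regenerating replicate 2 and uninjured replicate 3 almost met. The VEGF-B rows vegfba and vegfbb stayed at or under 0.556 scaled FPKM and were not tested, and vegfbb has a mean normalised count of 0 in the authors' deposited table.

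Within each library the share of a ligand among the transcripts of its family does not depend on scaling. Of the summed FPKM of the 5 VEGF ligand rows, vegfaa took 51.6%, 36.4% and 50.1% in regenerating libraries, against 7.74%, 8.44% and 13.0% in uninjured ones. The share of vegfab was 29.97% ± 1.35 in regenerating and 45.7% ± 3.304 in uninjured libraries (SD, n = 3 each), and that of vegfc 22.0% ± 6.89 and 41.9% ± 4.67. The sum of the 5 rows was 34.0 ± 1.33 scaled FPKM in regenerating and 38.5 ± 14.1 in uninjured libraries (SD, n = 3 each), with the uninjured range of 26.3 to 53.9 covering all regenerating values. The log2 ratio of vegfaa to vegfab was 0.86, 0.24 and 0.71 in regenerating libraries and -2.65, -2.32 and -1.83 in uninjured ones. In words, vegfaa was the more abundant copy in each regenerating library and the less abundant in each uninjured one. The exact permutation p of this ratio was 0.1 (two-sided), which is the lower limit for 3 against 3 libraries. After Benjamini-Hochberg adjustment over the 11 ratios computed, which were chosen with the values known, it was 0.183. Because vegfaa was higher and vegfab lower in all regenerating libraries, this separation was fixed beforehand. Of the 11 ratios 6 did not overlap between groups, and each of these holds a gene whose own groups did not overlap. The share of such ratios among all pairs of genes was not computed, so this count cannot be set against it. The ratios pdgfba/pdgfbb, fgfr1a/fgfr1b, fgfrl1a/fgfrl1b, igf1ra/igf1rb and fgfr4/fgfr2 overlapped (exact permutation p of 0.2 to 0.8, two-sided).

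**Figure D2:**
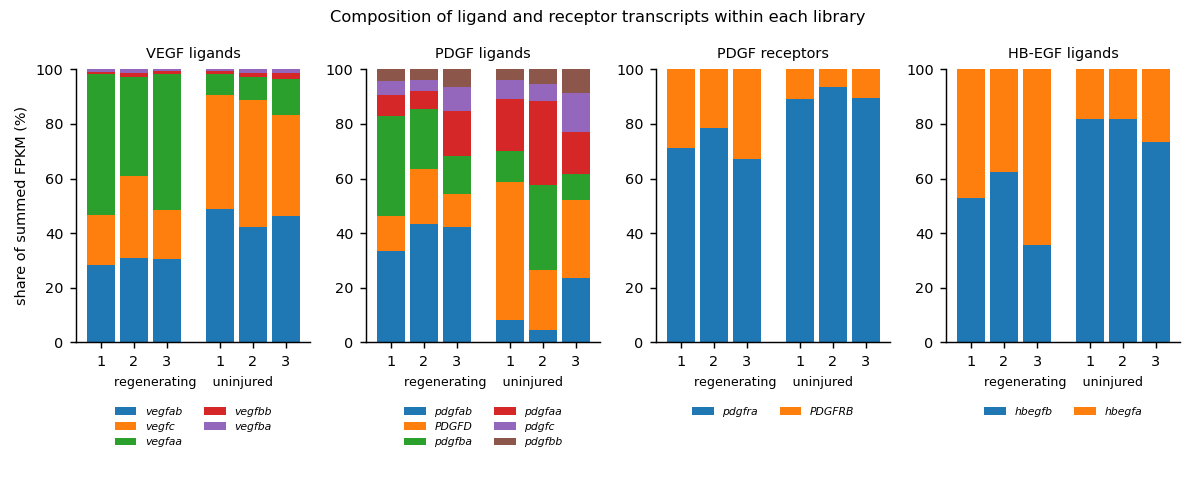
Share of each row in the summed FPKM of its family and role within each library, for VEGF ligands, PDGF ligands, PDGF receptors and HB-EGF ligands; bars 1 to 3 on the left of each panel are regenerating and those on the right uninjured libraries. The shares of vegfaa, pdgfab, PDGFRB and hbegfa are larger in every regenerating library than in any uninjured one.

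Receptors of VEGF, which the symbol rule does not cover, were followed as companion genes. Of 8 VEGF receptor and co-receptor genes 7 were tested, of which 2 rose, 1 fell and 4 did not pass. The gene flt1, whose product binds VEGF-A and can act as a decoy, measured 9.76, 4.41 and 4.29 scaled FPKM in regenerating and 1.42, 1.54 and 1.59 in uninjured libraries (log2 change 1.43, SE 0.33, limma adjusted p = 0.0238). The receptor gene kdrl, also an endothelial marker, measured 17.6, 12.7 and 10.1 scaled FPKM in regenerating and 5.03, 7.404 and 4.37 in uninjured libraries (log2 change 1.12, SE 0.30, limma adjusted p = 0.0387). In both genes regenerating replicate 1 was the highest library and the groups did not overlap. The neuropilin gene nrp2b, a co-receptor, fell, at 5.00, 5.50 and 3.62 scaled FPKM in regenerating libraries, against 20.8, 13.9 and 18.4 in uninjured ones (log2 change -1.71, SE 0.27, limma adjusted p = 0.00508). Of the 7 endothelial and endocardial markers, 3 rose with these genes (kdrl, cdh5 and egfl7) and 4 did not pass. In such sorted bulk samples, more cells of a type and more RNA per cell cannot be told apart, and the part of endothelial cells in these changes was not tested.

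All 9 PDGF rows were tested, and pdgfab and PDGFRB rose. The ligand gene pdgfab (ENSDARG00000098578), one of the zebrafish copies of PDGF-A, had the largest log2 change of the 44 tested members. It measured 9.44, 17.5 and 9.79 scaled FPKM in regenerating libraries, against 1.89, 0.879 and 3.77 in uninjured ones. The groups were well apart, with regenerating replicate 2 the highest library and uninjured replicate 2 the lowest. The mean was 12.2 ± 4.54 scaled FPKM in regenerating and 2.18 ± 1.47 in uninjured cells (SD, n = 3 each), a ratio of 5.62, and the log2 change was 2.11 (SE 0.39, limma adjusted p = 0.01). The call held in all 16 alternative settings, with log2 changes of 1.78 to 2.605. Its adjusted p was 0.0493 without regenerating replicate 2 and 0.0488 with no filter on low values.

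The other PDGF-A copy, pdgfaa, measured 2.18, 2.72 and 3.83 scaled FPKM in regenerating and 4.32, 6.17 and 2.45 in uninjured libraries, with overlapping groups (log2 change -0.40, SE 0.34, limma adjusted p = 0.486). The log2 ratio of pdgfab to pdgfaa was 2.11, 2.69 and 1.36 in regenerating libraries, against -1.19, -2.81 and 0.62 in uninjured ones (exact permutation p = 0.1, two-sided, the smallest possible). This order of the copies was the same in every regenerating library and differed among the uninjured ones. After Benjamini-Hochberg adjustment over the 11 ratios the permutation p was 0.183. The pair was chosen with the values known and pdgfab alone did not overlap, so the ratio is no separate result. The PDGF-B copy pdgfba measured 10.3, 8.90 and 3.22 scaled FPKM in regenerating libraries, against 2.60, 6.26 and 1.56 in uninjured ones. Its groups overlapped and its log2 change of 0.94 had a 95% interval of -0.11 to 2.00 (limma adjusted p = 0.235). For the remaining ligands the log2 change was 0.18 (SE 0.24) in pdgfbb, 0.01 (SE 0.26) in pdgfc and -0.40 (SE 0.42) in PDGFD, and no row of these passed. As a share of the 6 PDGF ligand rows, pdgfab made up 39.6% ± 5.40 in regenerating and 12.1% ± 10.1 in uninjured libraries (SD, n = 3 each), while PDGFD, the largest share by mean in uninjured libraries though not in replicate 2, made up 15.1% ± 4.35 and 33.6% ± 14.7.

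Of the PDGF receptors PDGFRB rose and pdgfra did not pass. The row PDGFRB (ENSDARG00000100897), the receptor kinase of PDGF-B that marks pericytes and other mural cells, measured 4.50, 3.45 and 4.04 scaled FPKM in regenerating libraries, against 0.944, 1.28 and 1.91 in uninjured ones. No library of one group reached the other. The mean was 3.995 ± 0.527 in regenerating and 1.38 ± 0.487 in uninjured cells (SD, n = 3 each; log2 change 1.09, SE 0.28, limma adjusted p = 0.0332). The call held in 9 of 16 alternative settings. Among those where it did not, the limma adjusted p was 0.142 without regenerating replicate 1, 0.0735 without regenerating replicate 2, 0.111 without regenerating replicate 3, 0.0681 without uninjured replicate 1 and 0.0656 without uninjured replicate 2, with log2 changes of 0.97 to 1.18 in these fits. With no filter on low values it was 0.0788.

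The receptor gene pdgfra, which binds PDGF-A and marks fibroblast-like cells, was the more abundant PDGF receptor in every library. It measured 11.2, 12.5 and 8.33 scaled FPKM in regenerating and 7.62, 18.4 and 16.3 in uninjured libraries, where replicate 1 was low. Its log2 change was -0.30 (95% interval -1.06 to 0.46, limma adjusted p = 0.612). As a share of both receptors, PDGFRB took 28.6%, 21.6% and 32.7% in regenerating libraries, against 11.0%, 6.53% and 10.5% in uninjured ones (exact permutation p = 0.1, two-sided, the smallest possible). The pair was chosen with the values known and PDGFRB alone did not overlap, so this share is no separate result. Of the 6 mural markers beside PDGFRB, 2 rose (rgs5b and tagln), 3 fell (rgs5a, acta2 and myh11a) and 1 did not pass. Without scaling acta2 (limma adjusted p = 0.0772) and myh11a (0.200) did not pass. Of the 6 epicardial markers 5 were tested and all 5 rose, and of the 6 fibroblast markers 5 rose and 1 did not pass. The part of these cells in the rise of PDGFRB and pdgfab was not tested.

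**Figure D3:**
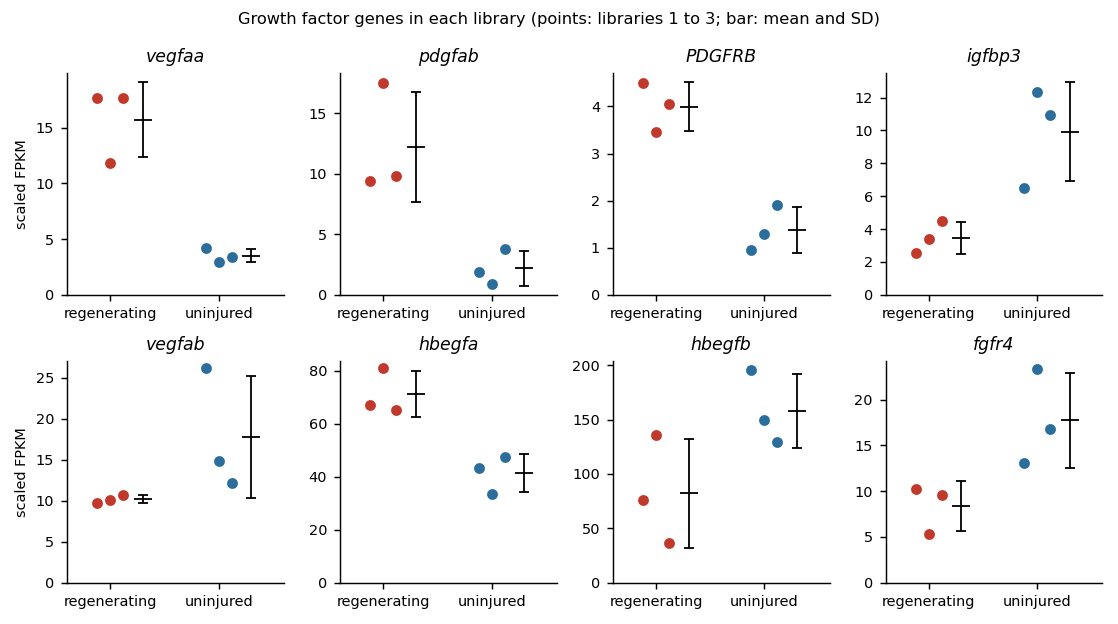
Scaled FPKM of 8 members in each library (points) with the mean and SD of each group (n = 3 each); regenerating is left of uninjured in every panel and each axis starts at 0. The groups are apart in all panels except hbegfb, where regenerating replicate 2, at 135.5 scaled FPKM, lies above uninjured replicate 3.

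HB-EGF ligands were the most abundant growth factor transcripts of these families, together with igf2b. HB-EGF is made as a membrane-bound precursor that is cleaved to activate EGF receptors. The row hbegfb (ENSDARG00000031246) measured 75.7, 135.5 and 36.1 scaled FPKM in regenerating libraries, against 195.5, 149.5 and 129 in uninjured ones. The regenerating libraries differed widely, and replicate 2 reached into the uninjured range (log2 change -1.10, SE 0.42, limma adjusted p = 0.126). The row hbegfa measured 67.2, 81.2 and 65.3 scaled FPKM in regenerating libraries, against 43.4, 33.5 and 47.3 in uninjured ones, without overlap. Its log2 change of 0.78 (95% interval 0.25 to 1.304) missed the threshold (limma adjusted p = 0.0624), while without scaling it passed, at 1.38 (limma adjusted p = 0.00568).

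The ratio of these copies did not overlap between groups. The log2 ratio of hbegfa to hbegfb was -0.17, -0.74 and 0.86 in regenerating libraries, against -2.17, -2.16 and -1.45 in uninjured ones (exact permutation p = 0.1, two-sided, the smallest possible). Put as a share, hbegfa made up 49.6% ± 13.7 of HB-EGF transcripts in regenerating and 21.1% ± 4.94 in uninjured libraries (SD, n = 3 each). After Benjamini-Hochberg adjustment over the 11 ratios the permutation p of the ratio was 0.183. The pair was chosen with the values known and hbegfa alone did not overlap, so the ratio is no separate result. The receptor gene egfra, which encodes a zebrafish EGF receptor, measured 17.0, 20.5 and 24.1 scaled FPKM in regenerating and 12.3, 13.5 and 14.6 in uninjured libraries. The groups did not overlap, but the log2 change of 0.57 (SE 0.24, limma adjusted p = 0.165) did not pass. Without scaling it was 1.14 (limma adjusted p = 0.0196).

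Of 25 secreted FGF ligand rows only fgf2, fgf18a, fgf17 and fgf24 passed the filter, and none of these 4 reached the threshold in limma. A mean normalised count of 0 is given in the authors' deposited table for 9 of the 21 that were not tested, among them fgf20a, the ligand that starts fin regeneration, and fgf9, fgf10b, fgf22 and fgf23. The most abundant tested ligand was fgf2, a heparin-binding factor, at 1.96, 3.15 and 3.89 scaled FPKM in regenerating and 1.12, 6.23 and 6.95 in uninjured libraries. Uninjured replicate 1 was the lowest of all 6, and the log2 change of -0.34 had a 95% interval of -1.43 to 0.75 (limma adjusted p = 0.696). The row fgf17 reached 1.38 scaled FPKM at most in regenerating libraries, with 0.998, 0.444 and 3.62 in uninjured ones (log2 change -0.31, SE 0.40). Values of fgf18a were 2.79, 2.32 and 3.43 scaled FPKM in regenerating and 1.70, 1.95 and 3.96 in uninjured libraries (log2 change 0.17, SE 0.31). In the authors' deposited table fgf18a has a log2 fold change of 2.01 and an adjusted p of 0.0951. Of the 4 tested ligands only fgf24 had groups that did not overlap. It measured 1.22, 1.06 and 1.67 scaled FPKM in regenerating and 0.634, 0.606 and 0.904 in uninjured libraries (log2 change 0.43, SE 0.23, limma adjusted p = 0.265). Because fgf24 passed the filter through the regenerating libraries alone, a separation was built into its selection, and no conclusion is drawn from it. Among untested ligands fgf21, a metabolic hormone of this family, had the highest single value, 7.90 scaled FPKM in uninjured replicate 2, beside 2.225 and 0.310 in the other uninjured libraries and 0.586 at most in regenerating ones.

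FGF receptors were expressed in both groups, and no receptor row passed the test. Levels per length, averaged within groups, followed the order fgfr2, fgfr4, fgfrl1a, fgfr1a in uninjured cells, where the first 2 overlapped, and fgfr2, fgfr4 and fgfrl1a in regenerating cells lay at 16.5 ± 2.86, 8.39 ± 2.72 and 6.35 ± 1.22 scaled FPKM (SD, n = 3 each). The leading receptor, fgfr2 (ENSDARG00000058115), measured 13.2, 18.4 and 17.8 scaled FPKM in regenerating and 15.2, 21.1 and 22.1 in uninjured libraries, with overlapping groups. Its log2 change was -0.23 (95% interval -0.80 to 0.35, limma adjusted p = 0.621). The row fgfr4 measured 10.3, 5.27 and 9.62 scaled FPKM in regenerating libraries, against 13.1, 23.3 and 16.8 in uninjured ones, so the groups did not overlap. Its log2 change of -1.01 (SE 0.32, limma adjusted p = 0.0724) did not pass, and it was -0.44 without scaling. In the authors' deposited table fgfr4 has a log2 fold change of -1.19 and an adjusted p of 0.00559.

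The remaining FGF receptor rows had log2 changes of -0.52 (fgfrl1b) to 0.56 (the row fgfr1bl with the identifier ENSDARG00000104015). In scaled values the decoy-like receptors fgfrl1a and fgfrl1b, which lack the kinase domain, were lower in all regenerating libraries than in any uninjured one. Without scaling the groups overlapped in both, and neither passed in limma. For fgfrl1b the limma adjusted p was 0.306, and the log2 change without scaling was -0.06. Values of fgfrl1a were 7.34, 4.99 and 6.73 scaled FPKM in regenerating libraries and 7.82, 8.08 and 7.97 in uninjured ones (log2 change -0.30, SE 0.25, limma adjusted p = 0.490, and 0.24 without scaling). The rows fgfr1a, fgfr1b and the pair of rows named fgfr1bl are related in sequence and may share reads, which was not tested, so their separate levels are uncertain. The 4 rows of FGF-binding proteins, which release FGF from the matrix, stayed at or under 0.681 scaled FPKM and were not tested.

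**Figure D4:**
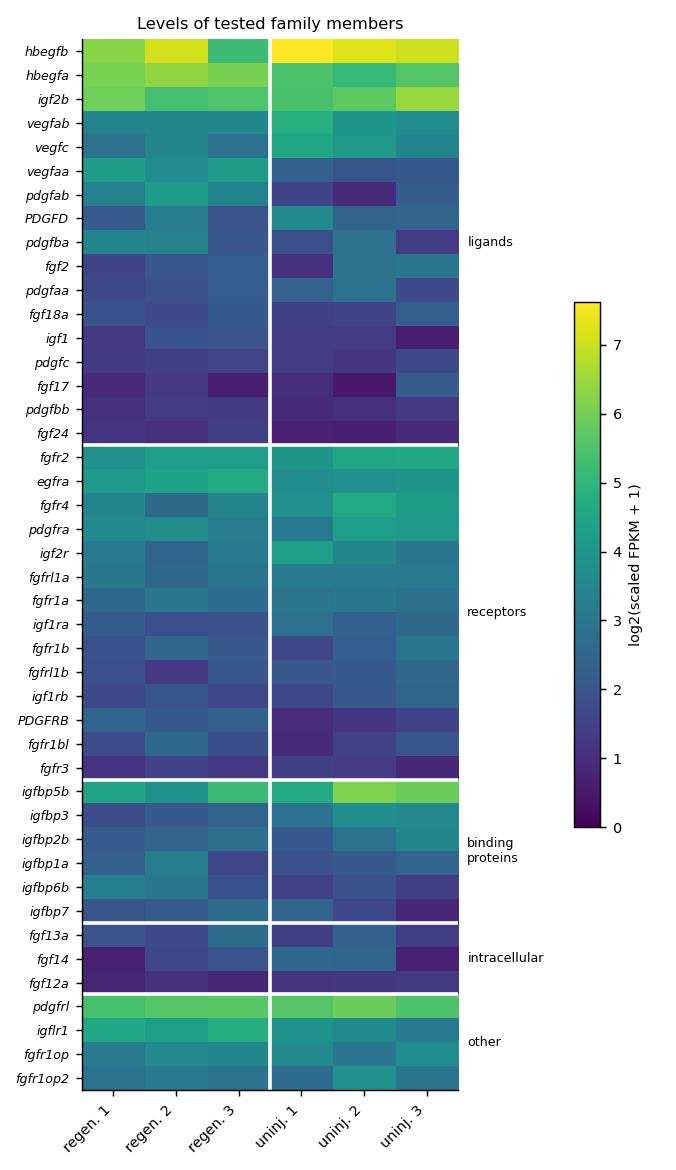
Level of each tested member, as log2(scaled FPKM + 1), in the 3 regenerating libraries (left) and the 3 uninjured ones (right), ordered by role and then by mean. The rows hbegfb, hbegfa and igf2b are brightest among ligands, fgfr2 and egfra among receptors and igfbp5b among binding proteins.

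Adaptors, co-receptors and targets of FGF signalling were followed as 15 companion genes, of which 12 were tested and none passed (limma; 3 higher and 0 lower without scaling). Their median log2 change was -0.09, beside 0.05 for all tested genes. Levels of ERK feedback genes ranged widely, with spry1 at 0.177 scaled FPKM at most in regenerating and 0.167 in uninjured libraries. The most abundant was dusp6, which encodes an ERK phosphatase and measured 93.9, 68.9 and 66.8 scaled FPKM in regenerating and 146.7, 103.9 and 84.7 in uninjured libraries (log2 change -0.52, SE 0.27). The Sprouty gene spry4 measured 36.9, 33.4 and 33.8 scaled FPKM in regenerating and 27.2, 58.2 and 30.9 in uninjured libraries (log2 change -0.08, SE 0.30). The ETS factor genes had log2 changes of -0.12 (etv4), -0.53 (etv5a) and 0.57 (etv5b), with overlapping groups in all of them.

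Among IGF ligands igf2b (ENSDARG00000033307) made up 93.3% ± 2.53 of the family's ligand transcripts in regenerating and 96.1% ± 1.96 in uninjured libraries (SD, n = 3 each). It measured 60.2, 40.6 and 44.9 scaled FPKM in regenerating libraries, against 41.9, 50.7 and 85.3 in uninjured ones. The groups overlapped, with uninjured replicate 3 the highest, and the log2 change of -0.24 had a 95% interval of -0.92 to 0.44 (limma adjusted p = 0.658). The row igf1 was low, at 1.43, 2.81 and 3 scaled FPKM in regenerating and 1.58, 1.55 and 0.501 in uninjured libraries (log2 change 0.64, SE 0.32, limma adjusted p = 0.241). It passed without scaling (limma adjusted p = 0.0472). The row igf2a reached 0.789 scaled FPKM at most, and igf3, a gonadal form in fish, has a mean normalised count of 0 in the authors' deposited table.

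The 3 IGF receptor rows did not pass. The receptor kinase gene igf1ra measured 3.66, 2.60 and 2.80 scaled FPKM in regenerating libraries, against 6.20, 4.16 and 5.17 in uninjured ones, with no overlap (log2 change -0.62, SE 0.27, limma adjusted p = 0.184). Its copy igf1rb overlapped between groups (log2 change -0.32, SE 0.30). The row igf2r, whose product clears IGF2 and sorts lysosomal enzymes, measured 7.77, 4.63 and 8.04 scaled FPKM in regenerating and 18.1, 10.5 and 7.15 in uninjured libraries (log2 change -0.67, 95% interval -1.46 to 0.13, limma adjusted p = 0.263).

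Of the 6 tested IGF-binding proteins igfbp3 fell and 5 did not pass. The gene igfbp3 (ENSDARG00000099144), the main IGF carrier of blood in mammals, measured 2.56, 3.365 and 4.47 scaled FPKM in regenerating libraries, against 6.51, 12.3 and 10.9 in uninjured ones. The groups did not overlap, with uninjured replicate 1 nearest to the regenerating ones. The mean was 3.46 ± 0.955 scaled FPKM in regenerating and 9.92 ± 3.03 in uninjured cells (SD, n = 3 each), and the log2 change was -1.27 (SE 0.31, limma adjusted p = 0.0289). The call held in 9 of 16 alternative settings. Without scaling the log2 change was -0.76 (limma adjusted p = 0.145). The adjusted p was 0.137 without regenerating replicate 1, 0.0980 without regenerating replicate 2, 0.0553 without regenerating replicate 3, 0.0745 without uninjured replicate 2 and 0.0787 without uninjured replicate 3. With no filter on low values it was 0.0789.

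The most abundant binding protein was igfbp5b, at 20.7, 14.2 and 35.3 scaled FPKM in regenerating libraries, against 24.4, 70.3 and 59.4 in uninjured ones. Uninjured replicate 1 fell among the regenerating libraries, and the log2 change of -1.07 (SE 0.43, limma adjusted p = 0.149) did not pass. It passed in 1 of 16 alternative settings: without uninjured replicate 1 the log2 change was -1.52 (limma adjusted p = 0.0311). Without scaling the change was -0.47 (limma adjusted p = 0.511), and without uninjured replicate 2 it was -0.78 (limma adjusted p = 0.321). In the authors' deposited table igfbp5b has a log2 fold change of -1.23 and an adjusted p of 0.0220. The row igfbp2b measured 3.63, 4.33 and 5.99 scaled FPKM in regenerating and 3.25, 6.25 and 10.2 in uninjured libraries, with overlapping groups (log2 change -0.33, SE 0.37).

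The IGFBP-6 copies had higher means in regenerating cells. The gene igfbp6b, whose mammalian relative prefers IGF2, measured 8.75, 7.22 and 2.80 scaled FPKM in regenerating libraries, against 1.78, 2.73 and 1.599 in uninjured ones. Regenerating replicate 3 lay just above uninjured replicate 2, and the log2 change was 1.17 (SE 0.38, limma adjusted p = 0.0791), or 1.61 without scaling (limma adjusted p = 0.0154). Its copy igfbp6a was not tested, having exceeded the filter in 2 libraries only: it measured 1.54, 0.262 and 4.50 scaled FPKM in regenerating and 0.148, 0.162 and 0.167 in uninjured libraries. In 4 libraries, the uninjured ones and regenerating replicate 2, igfbp6a was within 2 times the median floor for its length. The authors' deposited table lists igfbp6b with a log2 fold change of 1.78 (adjusted p = 0.00118) and igfbp6a with 2.86 (adjusted p = 0.0138). The log2 ratio of igfbp6b to igfbp3 was 1.77, 1.101 and -0.67 in regenerating libraries, against -1.87, -2.17 and -2.77 in uninjured ones (exact permutation p = 0.1, two-sided, the smallest possible). After Benjamini-Hochberg adjustment over the 11 ratios this p was 0.183. Because igfbp6b was higher and igfbp3 lower in all regenerating libraries, the separation was fixed by the choice of the pair. As shares of the 11 binding protein rows of the IGF family, igfbp3 made up 6.85% ± 1.04 in regenerating and 13.0% ± 1.16 in uninjured libraries (SD, n = 3 each). For igfbp6b the shares were 13.4% ± 7.87 in regenerating and 2.83% ± 1.07 in uninjured libraries.

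In the IGF axis 14 companion genes were followed and 10 tested: 3 fell, 1 rose, and for 6 the threshold was missed (without scaling, 1 was lower and 3 were higher). The insulin receptor substrate gene irs2b, an adaptor of insulin and IGF1 receptors, fell, at 14.8, 15.9 and 14.9 scaled FPKM in regenerating libraries, against 35.5, 99.9 and 78.9 in uninjured ones (log2 change -2.04, SE 0.35, limma adjusted p = 0.00783). Its relative irs1 fell as well, at 4.27, 4.58 and 5.63 scaled FPKM in regenerating and 10.02, 10.1 and 14.5 in uninjured libraries (log2 change -1.09, SE 0.26, limma adjusted p = 0.0277). Both adaptors were lower in every regenerating library, and the uninjured values of irs2b were widely spread. The stanniocalcin gene stc2a, whose mammalian relative blocks the protease that cleaves IGF-binding proteins, fell by 1.3 on the log2 scale (SE 0.30). The membrane metalloproteinase gene mmp14a rose by 1.84 (SE 0.34). Of the 3 that fell, irs2b also passed without scaling.

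The HGF receptor and ligand rows did not reach the filter. The receptor gene met measured 0.539, 0.974 and 0.949 scaled FPKM in regenerating and 0.472, 0.162 and 0.389 in uninjured libraries and was not tested, although the groups did not overlap. The ligand genes hgfa and hgfb reached 1.196 and 1.099 scaled FPKM at most, in uninjured replicate 3, and were not tested. Of 5 genes for processing of the HGF precursor, which encode proteases and protease inhibitors, 4 were matched and 3 were tested. The matriptase gene st14a fell, at 2.21, 0.749 and 0.517 scaled FPKM in regenerating libraries, against 4.29, 5.13 and 4.07 in uninjured ones (log2 change -1.42, SE 0.33, limma adjusted p = 0.0239). The protease inhibitor gene spint2 fell too, at 2.02, 0.776 and 1.19 scaled FPKM in regenerating libraries, against 4.33, 7.75 and 6.59 in uninjured ones (log2 change -1.64, SE 0.32, limma adjusted p = 0.0121). Without scaling spint2 passed as lower and st14a did not (limma adjusted p = 0.0655). The authors' deposited table gives st14a an adjusted p of 0.721. The genes st14a and spint2 are expressed mainly by epithelial cells, and the part of such cells in these changes was not tested.

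**Figure D5:**
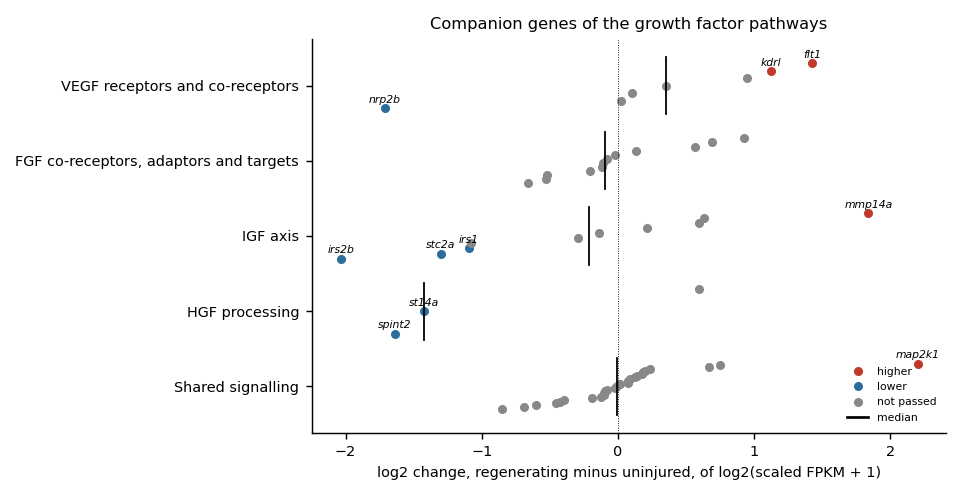
Log2 change of the 59 tested companion genes, regenerating minus uninjured, by group; black bars are medians. Red points on the right (kdrl, flt1, mmp14a, map2k1) rose and blue points on the left (nrp2b, irs2b, irs1, stc2a, st14a, spint2) fell, and the FGF group has grey points only.

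Of 27 adaptors, RAS, RAF, MEK, ERK, PI3K and AKT genes, all tested, map2k1 rose and 26 did not pass, with a median log2 change of -0.01. The MEK gene map2k1 measured 14.6, 13.7 and 14.4 scaled FPKM in regenerating libraries, against 3.05, 0.606 and 4.59 in uninjured ones (log2 change 2.20, SE 0.42, limma adjusted p = 0.0114). The regenerating libraries lay close together and well above the uninjured ones. The groups overlapped for mapk3, a kinase gene of the cascade (log2 change 0.19, SE 0.29). In 3 of the 27, braf, gab1 and raf1a, all regenerating libraries were below all uninjured ones, beside 13.7% of all tested genes. Their log2 changes were -0.86, -0.60 and -0.69 (limma adjusted p = 0.0577, 0.157 and 0.175), and -0.46, -0.05 and -0.21 without scaling. In the authors' deposited table the adjusted p is 0.0313 for braf, 0.0490 for gab1 and 0.407 for raf1a. Over all 69 companion genes, 59 were tested, 4 rose and 6 fell, and the median log2 change was -0.02. Of all tested genes 7.50% rose and 3.94% fell. Without scaling 11 of the 59 were higher and 3 lower, with a median of 0.50, beside 23.7% and 1.52% of all tested genes.

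The 8 other rows, which carry a family name but were placed in no role, were read apart. The gene pdgfrl, for a secreted receptor-like protein without a kinase, was abundant, at 41.2, 48.5 and 49.5 scaled FPKM in regenerating and 46.6, 58.1 and 43.96 in uninjured libraries (log2 change -0.09, 95% interval -0.60 to 0.42). The row igflr1, which is named for a receptor of IGF-like proteins and is no IGF receptor, measured 22.1, 18.2 and 25.6 scaled FPKM in regenerating libraries, against 13.9, 11.4 and 7.65 in uninjured ones, without overlap (log2 change 0.96, SE 0.28, limma adjusted p = 0.0544). It passed without scaling (limma adjusted p = 0.00986). The genes fgfr1op and fgfr1op2 had log2 changes of -0.05 and -0.18. The row igfn1.1, for a muscle protein with immunoglobulin and fibronectin domains, was not tested, and had 0.106, 0.316 and 0.216 scaled FPKM in regenerating and 0.944, 2.26 and 0.501 in uninjured libraries. In the authors' deposited table its adjusted p is 0.00625. The other igfn1 rows stayed under 0.1 scaled FPKM. Of the 7 intracellular FGF homologous factors, which bind sodium channels rather than FGF receptors, fgf13a, fgf14 and fgf12a were tested and none passed.

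The authors' deposited table lists 5 members as higher and 4 as lower in regenerating cells at an adjusted p below 0.05. Of the 74 members with a mean normalised count above 0 these are 6.76% and 5.41%, beside 4.84% and 4.62% of all such genes in the authors' deposited table. Its higher members are vegfaa, pdgfab, PDGFRB, igfbp6b and igfbp6a, and its lower ones igfbp3, igfbp5b, fgfr4 and igfn1.1. All 4 members that passed in limma are among them with the same direction, and both values rest on the same 6 libraries. For vegfaa the authors' deposited table gives a log2 fold change of 1.95 with an adjusted p of 1.19e-06, and for pdgfab 2.39 with 0.00237. For 42 of the 44 tested members the sign in limma was that of the authors' deposited table.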

How the data were processed

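RNA was measured in 6 libraries, 3 regenerating and 3 uninjured, grouped by sample title. The submitters' processing notes name, without roles, genome build GRCz10 and the tools R 3.3.3, RSEM 1.3.0, STAR 2.5.3a and DESeq2. Per the file headers, the table the authors deposited gives FPKM per gene as log2, with their own log2 fold change, p-value, adjusted p, length, and a mean normalised count whose signal per library is not given. After undoing the log2, 100% of values lay within 0.001 of a grid of 0.01, with 0.1 as the lowest, so an offset of 0.1 was subtracted. Genes with a mean normalised count of 0 still hold a floor: among those of at least 500 nt, FPKM times length (kb) had library medians of 0.145 to 0.208. Single genes with such a count can lie well above these medians, as fgf12a did. Low members are therefore imprecise, and depth as counts is unknown.

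FPKM was divided by median-ratio factors over 8924 genes above 1 FPKM in all libraries. Genes above 1 FPKM in at least 3 libraries (13319) were fitted as log2(scaled FPKM + 1), which understates changes of low genes, using limma (3.58.1, under R 4.3.3) with group as the only term and a variance trend on intensity, two-sided, adjusted by Benjamini-Hochberg at 0.05. The procedure was tested on simulated data. Exact permutation tests used SciPy 1.17.1. The members, companion genes, markers and ratios were chosen with earlier results of these data known. Named are all members past the threshold, the most abundant ligand and receptor row of each family and the 3 most abundant binding proteins, with further members given for completeness. For lists, the row of highest mean per symbol was taken. Of 90 member identifiers, 87 were found in a table of gene names. Reads shared between related copies were not tested. Alternatives are given in the closing section. One companion gene is counted but not reported here by name.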

Additional observations from a re-analysis of the deposited data

How the results depend on the processing

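Over all tested genes, 999 were higher and 525 lower; without scaling these counts were 3161 and 203, with no filter on low values 479 and 202, and with 1 library left out 249 to 1056 and 133 to 534. Among members 3 were higher and 1 lower, and without scaling the counts were 9 and 0. The higher count was 2 with no filter, 2 to 3 with 1 library left out and 4 with a filter above 2 FPKM in at least 3 libraries. The lower count was 2 with upper-quartile scaling, 0 with no filter and 0 to 2 with 1 library left out. Of 224 alternative values over 14 named members, 200 kept direction and side of the threshold, 14 lost and 2 gained the call, and 8 reversed. Settings that changed only the filter, the intensity trend or the replicate block leave the log2 change as it was, so direction could not move there. Only 4 of the named members had a call to lose. The lost calls were all of PDGFRB and igfbp3, which each passed in 9 of 16 settings. The reversed log2 changes, none of which passed, were without scaling 0.10 (fgf2), 0.35 (fgfr2), 0.37 (igf2b), 0.18 (igfbp2b) and 0.26 (pdgfra). Without uninjured replicate 3 they were 0.00188 (fgf2), 0.051 (igf2b) and 0.00196 (igfbp2b), within ranges over libraries left out that begin at -0.96, -0.44 and -0.69. The cause was not tested. Whether replicate numbers pair the libraries is not known. Residual correlations of libraries with the same number were -0.0127, -0.00465 and -0.0623, and no library correlated best with its own number. Such correlations cannot exclude pairing. With the replicate block 917 genes were higher and 485 lower, with 2 and 1 members, and PDGFRB had a limma adjusted p of 0.057. A filter of a mean normalised count of at least 10, added after seeing the data, gave 1010 and 556, with 4 and 1 members. Without read counts, the precision of low values is unknown.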
